A study of Mus musculus with 2 samples.

Results

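MAP kinase phosphatases of the Dusp family were examined in primordial germ cells (PGCs), the embryonic precursors of eggs and sperm, with and without over-expression of Klf9. The 10 genes, Dusp1, Dusp2, Dusp4, Dusp5, Dusp6, Dusp7, Dusp8, Dusp9, Dusp10 and Dusp16, were picked by gene symbol out of 23320 symbols present in both deposited files, of which 18737 were above 0 in at least 1 library. The family was selected on earlier results of the same libraries, in which Dusp6 had been seen to be higher with Klf9, so all values below are a description and not a test of that choice. Every member had 1 row in each file and was above 0 in both libraries, and 9 of the 10 reached an RPKM (read count divided by transcript length and by the mapped reads of the library) of 1 in either library.

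PGCs of E13.5 mouse embryos were sorted by the GFP signal of an Oct4-deltaPE-GFP transgene, infected with lentivirus at an MOI of 5, and cultured for 1 day on gelatin. The control group was 1 library of PGCs given a control lentivirus, and the Klf9-OE group was 1 library of PGCs given a lentivirus that expressed the Klf9 coding region from the CSII-EF vector. Which empty or mCherry vector served as control, and whether male and female PGCs were pooled, is not given in the sources used here. The sample labels describe a medium with bFGF, whereas the paper describes culture without it, and the labels give the same medium for both groups. With 1 library per group there was no replicate check on any difference. The Cufflinks 95% interval printed beside each RPKM covers the error of estimation within a library and not the difference between cultures.

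MAP kinase phosphatases remove the phosphates from both the threonine and the tyrosine of the activation loop of ERK, JNK and p38 kinases and so switch them off. Several of them are themselves transcribed in response to the kinase they act on, which makes them negative feedback regulators and, in the case of Dusp6, a widely used readout of FGF-ERK signaling. The family is divided into nuclear inducible enzymes (Dusp1, Dusp2, Dusp4, Dusp5), cytoplasmic enzymes that prefer ERK (Dusp6, Dusp7, Dusp9) and enzymes that prefer JNK and p38 (Dusp8, Dusp10, Dusp16). FGF signaling matters in these cells because bFGF is one of the factors used to turn PGCs into pluripotent embryonic germ cells.

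Klf9 itself stood at an RPKM of 2.27 (95% interval 1.97 to 2.57) in the control library against 80.8 (77.0 to 84.5) with Klf9-OE, so the RPKM of Klf9 was 35.6-fold higher in the library labelled as over-expressing it. The widths of these intervals implied 230 reads in control and 1825 with Klf9-OE. The assembled Klf9 locus ran from 23141039 to 23168100 in control and from 23141226 to 23166911 with Klf9-OE. The part of the transcript model in the size of this ratio was not tested. The files hold no read totals. By the widths of the intervals, the Klf9-OE library was 1.22 times as deep as the control (median over 2304 genes). Among genes with 1 to 9 reads by this reckoning, 36.5% of 2091 genes in control PGCs and 89.5% of 1738 genes with Klf9-OE had an even number, within a tolerance of 0.06. For this reason intervals of the Klf9-OE library were also widened by the square root of 2, which is the width that reads entered in pairs would give. In that case the depth would be 0.61 of the control in place of 1.22 times it, and every Klf9-OE read number given above and below would count each read 2 times. Whether reads were entered in pairs was not tested. PGC markers were abundant in both libraries. The RPKM of 10 markers (Dppa3, Ddx4, Dazl, Pou5f1, Tfap2c, Nanos3, Dnd1, Kit, Sycp3 and Mael) summed to 2295 in control and 2033 in Klf9-OE PGCs, and 8 of the 10 were lower in Klf9-OE PGCs. Markers of other cells were low but not absent. Sums for control and Klf9-OE were 21.8 and 29.2 over 8 gonad somatic genes, 3.13 and 5.99 over 4 endothelial genes, 14.6 and 21.1 over 3 mesenchyme genes, and 4.14 and 5.33 over 4 macrophage and blood genes. With Klf9-OE, values were lower for 4 of the 8 gonad somatic, 2 of the 4 endothelial and 2 of the 4 macrophage and blood genes, and higher for all 3 mesenchyme genes and the rest. Within a list the genes differed in direction. The endothelial genes Cdh5 and Tek were at 1.995 and 0.735 in control and at 5.09 and 0.439 with Klf9-OE. The gonad somatic gene Star was listed at 0 in control and was at 2.39 with Klf9-OE, whereas Sox9 was at 2.04 and 1.09. Csf1r, of macrophages, was at 0.307 and 1.18, whereas Ptprc and Adgre1 were below 0.1 in both libraries, and Emcn, of endothelium, was listed at 0 with Klf9-OE. In RNA from a whole culture, more cells of a type and more RNA per cell cannot be told apart. The part of these other cells in the values below was not tested.

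Of the 10 phosphatase genes, 4 (Dusp6, Dusp2, Dusp4 and Dusp5) had a Klf9-OE level of 2 or more times the control level, and none had a control level of 2 or more times the Klf9-OE level. The share of all genes above 0 was 9.83% higher and 9.44% lower by this rule. Among the 12560 genes that reached RPKM 1 in either library, which hold 9 of the members, it was 3.93% higher and 3.79% lower. The Cufflinks intervals of the libraries lay apart for 6 members, which were the same 4 genes with Dusp7 and Dusp9, all of them higher in Klf9-OE PGCs. Intervals lay apart for 11.2% of all genes in the higher and 14.4% in the lower direction, and for 14.8% and 20.2% of genes that reached RPKM 1. Since the family was chosen with its values known, these shares serve only as a scale. The median log2 fold change, from log2(RPKM + 0.1) in Klf9-OE minus control, was 0.60 over the members and -0.02 over all genes above 0.

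**Figure D1:**
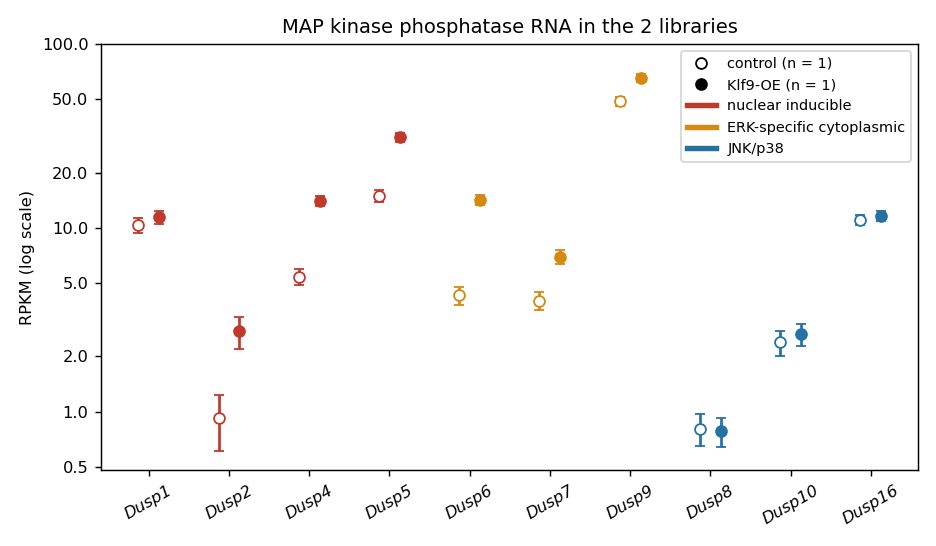
RPKM of the 10 phosphatase genes on a log axis in the control library (open circles) and the Klf9-OE library (filled circles), with the Cufflinks 95% intervals as bars and 1 library per group. Dusp2, Dusp4, Dusp5, Dusp6, Dusp7 and Dusp9 have intervals that lie apart, and the 3 JNK/p38 genes and Dusp1 have intervals that overlap.

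The nuclear inducible class held 3 of the 4 genes past 2-fold. Dusp4 encodes a nuclear phosphatase of ERK, JNK and p38 (chromosome 8, 34807297 to 34819894 of mm10, forward strand, 4 exons, 398 residues in the GENCODE annotation). Its RPKM was 5.43 (4.89 to 5.96) in the control library against 13.99 (13.1 to 14.8) with Klf9-OE. The ratio was 2.58, with an interval of 2.30 to 2.89 joined from those of both libraries, and a log2 fold change of 1.35. Both bounds of this ratio lay above 2, also with the widened Klf9-OE interval (2.26 to 2.94).

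Dusp5 encodes a nuclear phosphatase that acts on ERK and not on JNK or p38 (chromosome 19, 53529109 to 53542431, forward strand, 4 exons, 384 residues). Its RPKM was 14.9 (13.8 to 16.1) in the control library against 31.2 (29.5 to 32.9) with Klf9-OE. The ratio was 2.09 (1.90 to 2.29) and its lower bound was under 2, so Dusp5 was the member just inside the 2-fold limit, and Dusp7 with 1.74 the one just outside. The locus that Cufflinks assembled for Dusp5 started at 53528972 in the control library and 7635 bases further upstream, at 53521337, in the Klf9-OE library. Other members also had assembled loci, Dusp4 and Dusp9 in both libraries and Dusp2, Dusp7 and Dusp16 only in the Klf9-OE library. For Dusp2, Dusp4, Dusp5, Dusp7 and Dusp9, which are 5 of the 6 members with intervals apart, the ratio of implied reads over the ratio of RPKM was between 0.891 and 1.05 and not near 1.22, so no read numbers are given for them. It was 1.23 for Dusp6. The part of the transcript models in these RPKM ratios was not tested.

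Dusp2, an inducible phosphatase best known from activated immune cells (chromosome 2, 127336159 to 127338376, forward strand, 4 exons, 318 residues), was near the lower end of the family. Its RPKM was 0.925 (0.611 to 1.24) in the control library against 2.74 (2.21 to 3.26) with Klf9-OE. The ratio of 2.96 had the widest interval among the members past 2-fold (2.003 to 4.37), and with the widened Klf9-OE interval it reached down to 1.91.

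Dusp1 was the exception in this class. It encodes the immediate early phosphatase that is induced by growth factors and by stress and that limits p38 and JNK as well as ERK (chromosome 17, 26505591 to 26508472 in the files, minus strand, 4 exons, 367 residues). Its RPKM was 10.3 (9.38 to 11.3) in the control library against 11.4 (10.5 to 12.3) with Klf9-OE, with intervals that overlapped. The ratio was 1.10 (0.98 to 1.25), behind which the intervals implied 485 reads in control and 655 in Klf9-OE PGCs. The upper bound of Dusp1 was below the lower bounds of Dusp2, Dusp4 and Dusp5, so within this class the ratios were unequal by more than the error of estimation.

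All 3 cytoplasmic ERK phosphatases had higher values with Klf9-OE, and in each the intervals of the libraries lay apart. Dusp6 encodes the ERK phosphatase that acts in the FGF feedback loop (chromosome 10, 99263231 to 99267489, forward strand, 3 exons, 381 residues). Its RPKM was 4.30 (3.81 to 4.79) in the control library against 14.2 (13.4 to 15.0) with Klf9-OE. The ratio of 3.31 (2.91 to 3.76) was the highest in the family, with 303 reads implied in control and 1237 in Klf9-OE PGCs. The file bounds of the locus were the same in both libraries and equal to the annotated gene. Of the 12560 genes that reached RPKM 1 in either library, 255 had a larger ratio than Dusp6, which is 2.03%.

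Dusp7, a close relative of Dusp6 with the same preference for ERK (chromosome 9, 106368632 to 106375724, forward strand, 3 exons, 422 residues), had an RPKM of 4.02 (3.58 to 4.46) in the control library against 6.98 (6.39 to 7.58) with Klf9-OE. The ratio was 1.74 (1.51 to 1.998). Control levels of Dusp6 and Dusp7 had overlapping intervals, whereas in Klf9-OE PGCs Dusp6 was above Dusp7 with intervals that lay apart.

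Dusp9, a phosphatase of ERK that is abundant in placenta and pluripotent cells, lies on the X chromosome (73639419 to 73643514, forward strand, 4 exons, 452 residues). It was the most abundant member in both libraries, with RPKM values of 48.7 (46.1 to 51.3) in the control library against 65.2 (62.0 to 68.4) with Klf9-OE. The ratio of 1.34 (1.24 to 1.44) was the smallest among the members whose intervals lay apart, while the difference of 16.5 RPKM was the largest of all members, next to 16.2 for Dusp5. For Dusp9 the ratio of implied reads over the ratio of RPKM was 0.891, the lowest of the members. The part of the transcript model in its RPKM ratio was not tested. The 517 X-linked genes that reached RPKM 1 in either library had a median log2 fold change of -0.02. Xist, the RNA of the inactive X chromosome, was at 0.829 in control and 2.05 in Klf9-OE PGCs, and the Y-linked genes differed in direction, Eif2s3y being at 59.0 and 49.3 and Ddx3y at 3.76 and 4.29. The part of the sex of the cells in the value of Dusp9 was not tested.

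**Figure D2:**
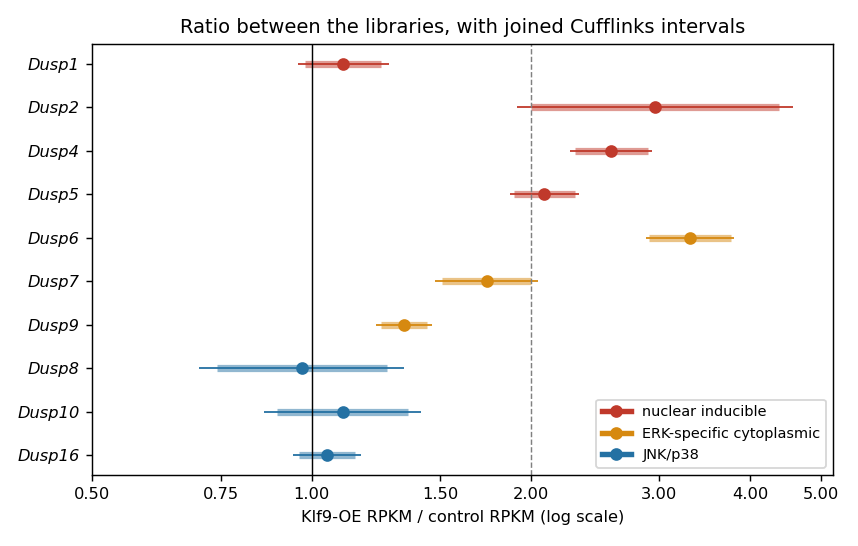
Ratio of the Klf9-OE RPKM to the control RPKM for each phosphatase gene on a log axis, with 1 library per group. Thick bars are the interval joined from both Cufflinks intervals, thin bars the same with the Klf9-OE interval widened by the square root of 2, the solid line is a ratio of 1 and the dashed line a ratio of 2. Dusp6 is farthest to the right at 3.31, and the 3 JNK/p38 genes lie between 0.97 and 1.10 with bars that cross 1.

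None of the JNK and p38 phosphatases had intervals that lay apart. Dusp16, a phosphatase that binds JNK (chromosome 6, 134715468 to 134792625, minus strand, 7 exons, 660 residues), had an RPKM of 11.05 (10.3 to 11.8) in the control library against 11.6 (10.9 to 12.3) with Klf9-OE. Its ratio of 1.05 (0.96 to 1.15) rested on 901 and 1138 implied reads, so a difference of 1.5-fold lay outside the interval of estimation. Dusp10, which acts on JNK and p38 in both the nucleus and the cytoplasm (chromosome 1, 184034461 to 184075636 in the files, forward strand, 4 exons, 483 residues), had an RPKM of 2.39 (2.02 to 2.76) in the control library against 2.63 (2.28 to 2.99) with Klf9-OE. The ratio was 1.10 (0.90 to 1.36). Dusp8, known mainly from brain and heart (chromosome 7, 142079490 to 142095843, minus strand, 7 exons, 663 residues), had the lowest level of the family, with RPKM values of 0.810 (0.650 to 0.970) in the control library against 0.785 (0.642 to 0.927) with Klf9-OE. Its ratio of 0.97 (0.74 to 1.27) was the only one below 1, and it turned to above 1 when the libraries were scaled to the same sum of RPKM.

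The classes could be compared through the bounds of their ratios. The highest upper bound among the 3 JNK/p38 genes was 1.36, that of Dusp10. The lower bounds of 5 of the 7 nuclear and cytoplasmic genes were above it, and those of Dusp9 (1.24) and Dusp1 (0.98) were not. The ratio of implied reads over the ratio of RPKM was 1.22, 1.19 and 1.20 for Dusp8, Dusp10 and Dusp16. It was 1.23 for Dusp6, but 1.05, 1.04, 0.920, 0.967 and 0.891 for Dusp2, Dusp4, Dusp5, Dusp7 and Dusp9. The RPKM ratios of the latter genes were thus larger than their reads and the depth of 1.22 would give. The part of the transcript models in the comparison of classes was not tested. Summed over genes, the nuclear inducible class went from an RPKM of 31.6 to 59.3, a ratio of 1.88, and the cytoplasmic ERK class from 57.0 to 86.4, a ratio of 1.52. The JNK/p38 class went from 14.2 to 15.0, a ratio of 1.05. These bounds hold for the estimates of 2 libraries, and no test of the difference between classes was possible.

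The order of the levels changed between the libraries. In control PGCs the order was Dusp9, Dusp5, Dusp16, Dusp1, Dusp4, Dusp6, Dusp7, Dusp10, Dusp2 and Dusp8, and the neighbours Dusp16 and Dusp1, Dusp6 and Dusp7, and Dusp2 and Dusp8 had overlapping intervals. In Klf9-OE PGCs it was Dusp9, Dusp5, Dusp6, Dusp4, Dusp16, Dusp1, Dusp7, Dusp2, Dusp10 and Dusp8, where Dusp6 and Dusp4, Dusp16 and Dusp1, and Dusp2 and Dusp10 had overlapping intervals. Dusp6 and Dusp4 had thus been below Dusp16 and Dusp1 in control PGCs and stood above them in Klf9-OE PGCs. Dusp9 made up 47.3% of the RPKM of all members in control PGCs and 40.6% in Klf9-OE PGCs, and Dusp6 went from 4.18% to 8.84%. The sum over all members went from 103 to 161.

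**Figure D3:**
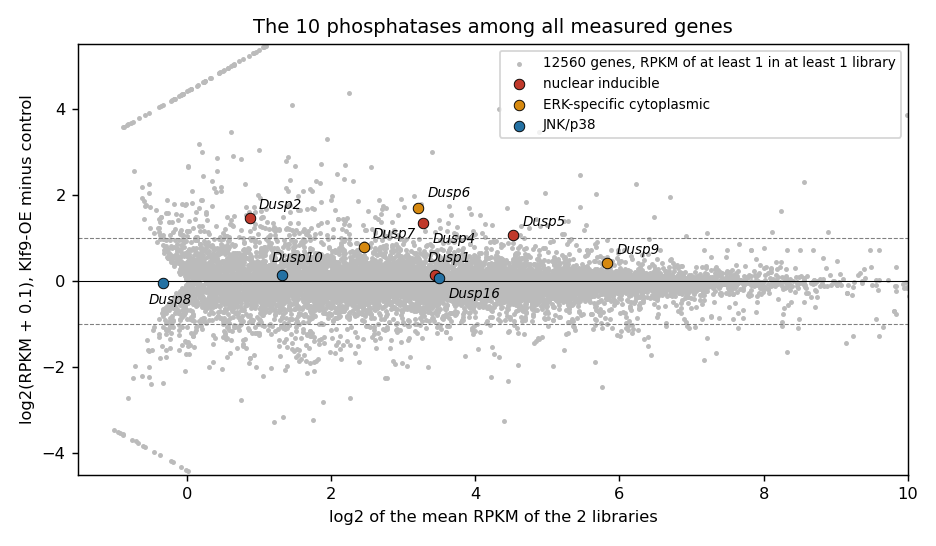
Log2 difference between Klf9-OE and control against the log2 of the mean RPKM of both libraries, for 12560 genes that reached RPKM 1 in either library (grey, of which 273 lie outside the axes) and the 10 phosphatase genes (coloured by class, Dusp8 lying below that RPKM). Dashed lines mark a 2-fold difference. Dusp2, Dusp4, Dusp5 and Dusp6 lie above the upper line, and Dusp1, Dusp8, Dusp10 and Dusp16 lie near 0.

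Promoter sequence from RefSeq (GRCm38.p6, the assembly of mm10, 250 bases before to 50 bases after the gene start) was found for 8 of the 10 members, all but Dusp4 and Dusp9. It is shown for the past-2-fold genes Dusp5, Dusp6 and Dusp2 and, for contrast, for Dusp1, with a motif in capitals in each. The capitals mark CArG boxes, to which serum response factor binds, in Dusp5, the CACCC box (CACCC) in Dusp6, GC boxes (GGGCGG) in Dusp2 and the cyclic AMP response element (CRE, TGACGTCA) in Dusp1, on either strand. GC and CACCC boxes are the kind of sequence that Klf and Sp proteins are known to bind.
Dusp5, chr19:53528895-53529194, forward strand: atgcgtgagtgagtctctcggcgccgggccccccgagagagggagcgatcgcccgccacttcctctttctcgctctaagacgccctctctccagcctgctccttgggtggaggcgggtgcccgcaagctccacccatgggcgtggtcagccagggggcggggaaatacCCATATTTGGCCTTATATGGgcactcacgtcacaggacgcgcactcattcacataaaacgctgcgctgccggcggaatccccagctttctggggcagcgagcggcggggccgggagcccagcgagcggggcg
Dusp6, chr10:99262981-99263280, forward strand: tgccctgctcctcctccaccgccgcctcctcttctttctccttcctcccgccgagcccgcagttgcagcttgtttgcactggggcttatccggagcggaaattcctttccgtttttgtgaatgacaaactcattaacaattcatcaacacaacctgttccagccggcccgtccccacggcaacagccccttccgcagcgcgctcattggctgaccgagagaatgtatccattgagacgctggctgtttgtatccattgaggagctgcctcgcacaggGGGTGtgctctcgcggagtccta
Dusp2, chr2:127335909-127336208, forward strand: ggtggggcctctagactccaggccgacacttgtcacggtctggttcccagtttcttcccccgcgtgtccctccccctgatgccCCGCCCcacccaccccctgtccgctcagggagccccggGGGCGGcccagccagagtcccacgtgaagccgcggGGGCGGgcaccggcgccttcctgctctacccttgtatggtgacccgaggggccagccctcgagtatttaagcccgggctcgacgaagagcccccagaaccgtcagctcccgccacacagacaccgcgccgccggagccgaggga
Dusp1, chr17:26508423-26508722, minus strand: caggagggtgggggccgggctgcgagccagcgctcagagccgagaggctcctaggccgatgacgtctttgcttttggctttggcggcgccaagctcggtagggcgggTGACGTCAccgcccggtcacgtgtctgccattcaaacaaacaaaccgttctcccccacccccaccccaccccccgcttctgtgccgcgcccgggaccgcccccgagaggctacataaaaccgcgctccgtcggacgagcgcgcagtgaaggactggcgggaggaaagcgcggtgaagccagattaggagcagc

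The promoters differed in these motifs. Dusp5 held 2 CArG boxes side by side, at -82 to -73 and -72 to -63 relative to the RefSeq start 53529145, where GENCODE has 53529109. It was the only one of the 8 members with any, against 1.63% of 32851 promoters of the same length in the table. The assembled Dusp5 loci of both libraries began upstream of these boxes. The CRE occurred in Dusp1 and Dusp8, against 1.79% of all promoters, and that of Dusp1, at -143 to -136, shared bases with a CACCC box. GC boxes were present in 7 of the 8, all but Dusp6, against 35.7% of all promoters, and CACCC boxes in 7 of the 8, all but Dusp7, against 57.5%. The letters CCGGAA, 1 form of the ETS site, and the AP-1 motif TGANTCA were in none of the 8, against 14.9% and 7.81% of all promoters. Other forms of the ETS site were not searched, so these promoters cannot be said to lack ETS sites. GC and CACCC boxes occurred both in members past 2-fold and in those near a ratio of 1. GC content was between 57.3% (Dusp6) and 78.7% (Dusp7), and the median of all promoters was 52.7%. A match describes these letters in this window and is not evidence of binding.

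The kinases that these phosphatases act on were mostly abundant, and several of them were near a ratio of 1. Of 10 MAP kinase genes, 2 were at least 2-fold higher and none was 2-fold lower, with a median log2 fold change of -0.01. Intervals lay apart for 2 of the 10 in the higher and 2 in the lower direction. Mapk3 (ERK1) was at an RPKM of 72.6 (70.0 to 75.2) in control and 48.8 in Klf9-OE PGCs, but the Klf9-OE interval of Mapk3 ran from 0 to 11322, so its ratio could not be read. The p38 alpha gene Mapk14 was at 48.9 (47.0 to 50.8) and 50.4 (48.6 to 52.3), and the JNK2 gene Mapk9 at 16.1 (15.2 to 17.0) and 15.8 (15.0 to 16.7).

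The JNK1 gene Mapk8 went from 14.5 (13.7 to 15.3) to 35.1 (32.7 to 37.5), a ratio of 2.42. Its interval was wider relative to the RPKM in Klf9-OE PGCs, where it implied 861 reads against 1315 in control PGCs, although the RPKM was higher. The locus was an assembled one in both libraries, and the part of the transcript model in this ratio was not tested. Mapk12 (p38 gamma) went from 2.46 (1.94 to 2.97) to 6.90 (5.75 to 8.05), a ratio of 2.81. Its intervals implied 89.5 reads in control and 143 in Klf9-OE PGCs, also on an assembled locus in both libraries. The part of the transcript model was not tested for Mapk12 either. Of the others, Mapk7 (ERK5) was at 32.9 and 30.2, Mapk10 (JNK3) at 3.26 and 2.39, Mapk11 (p38 beta) at 0.649 and 1.04, and Mapk13 (p38 delta) at 20.1 and 15.3.

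Genes that carry the signal to the kinases did not pass 2-fold in either direction. This held for 7 MAP kinase kinases (median log2 fold change 0.04), 17 measured genes of the RAS-RAF input (0.00) and 19 of the JNK and p38 input (-0.08). It also held for 15 measured effectors of the kinases (0.16), among them Srf, the serum response factor, which was at RPKM values of 13.1 (12.2 to 13.9) in the control library against 22.3 (20.9 to 23.7) with Klf9-OE. The intervals of Srf implied 947 reads in control and 987 in Klf9-OE PGCs, on an assembled locus in both libraries, and the part of the transcript model in its ratio was not tested. Intervals lay apart for 2 of the 17 RAS-RAF genes in the higher and 6 in the lower direction. These numbers were 1 and 3 for the 19 JNK and p38 input genes and 0 and 1 for the 7 MAP kinase kinases. For the 15 effectors they were 8 and 3. The shares of all genes above 0 were 11.2% and 14.4%. Among 15 other feedback and target genes of ERK, 6 were at least 2-fold higher and none lower, with a median of 0.57. These included Etv4 (2.26 to 18.8), Etv5 (12.3 to 50.6), Spry4 (0.580 to 4.60), Etv1 (0.370 to 1.17) and Egr1 (3.76 to 8.45). Fosl1, the sixth, was listed at 0 in control PGCs and had an RPKM of 0.956 in Klf9-OE PGCs. The immediate early gene Fos was at 10.8 in control and 10.9 in Klf9-OE PGCs, beside Dusp1 with 10.3 and 11.4. This list, too, was written with earlier results of the libraries known.

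**Figure D4:**
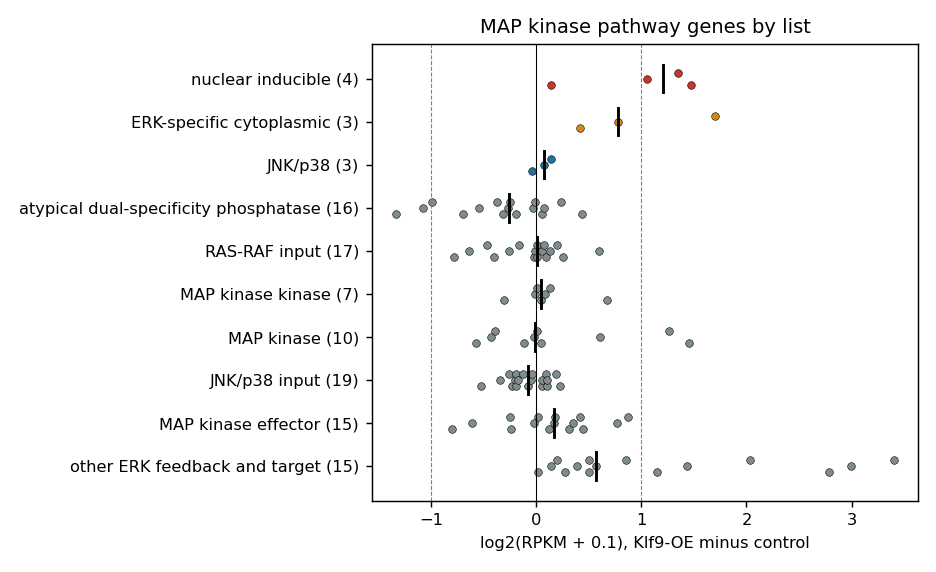
Log2 difference between Klf9-OE and control for each measured gene (points) of the phosphatase classes and of 7 other lists of the MAP kinase pathways, with the number of genes in parentheses and the median as a black bar. Dashed lines mark a 2-fold difference. The nuclear inducible class has a median of 1.20, the cytoplasmic ERK class 0.78 and the JNK/p38 class 0.07, and the atypical phosphatases lie mostly to the left of 0. The point farthest to the right is Fosl1, which was listed at 0 in control PGCs, so its place depends on the added 0.1.

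The atypical dual-specificity phosphatases, smaller relatives that lack the kinase-binding domain of the MAP kinase phosphatases, mostly had lower values with Klf9-OE. Of 16 measured, 12 were lower and 4 higher, with a median log2 fold change of -0.26. Of all 18737 genes above 0, 9744 were lower and 8993 higher. The lower genes include Styx and Dusp14, with ratios of 0.99 and 0.98. Intervals lay apart for 4 of the 16, all lower with Klf9-OE, against 14.4% of all genes in that direction. None of the 16 was at least 2-fold higher and 3 were at least 2-fold lower. Dusp19, which is known to interact with the JNK pathway, went from an RPKM of 17.99 (13.4 to 22.6) to 7.09 (6.24 to 7.94), with an assembled locus that ended 1512 bases further on in the Klf9-OE library. Its intervals implied 60.9 reads in control and 280 in Klf9-OE PGCs, although the RPKM was lower with Klf9-OE. The part of the transcript model in this ratio was not tested. Dusp26 went from 9.96 (8.90 to 11.02) to 4.96 (4.27 to 5.65), just past the limit. Dusp15, the third, was below an RPKM of 1 in both libraries. The 3 tyrosine phosphatases that bind MAP kinases through a similar motif, Ptpn5, Ptpn7 and Ptprr, were below an RPKM of 1 in both libraries. Among them Ptprr, with 0.236 (0.107 to 0.365) in control and 0.509 (0.342 to 0.677) in Klf9-OE PGCs, was past 2-fold with overlapping intervals.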

How the data were processed

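Per the submitters' processing notes, TopHat2, Bowtie and Cufflinks were run on single-end TruSeq reads with mm10 as the build. The authors deposited FPKM with 95% intervals for each locus. The versions are not given in the sources used here, and FPKM equals RPKM for single-end reads. Cufflinks assembled transcripts in each library separately, so locus bounds can differ between the libraries. Rows of the same symbol were summed. Rows under joint names (714 in control, 663 in Klf9-OE) were not split between the genes they name. A joint name held by both libraries counted as 1 symbol in the totals and shares of all genes. Symbols with a failed estimate were not used, and genes at 0 in both libraries were left out. The ratio of RPKM was taken with no pseudocount, log2 fold changes with 0.1 added. That understates changes of low genes. The interval of a ratio joins the relative half-widths of both libraries on the log scale. Implied reads are the square of 2 times the RPKM over the distance from it to the upper bound, given for members where their ratio was within 10% of the ratio of RPKM times 1.22. The depth is otherwise unknown. Genes other than the members were named if past 2-fold with an RPKM of at least 1, with the MAP kinases, of which 1 is not reported here. Srf, Fos, Fosl1, Dusp15, Emcn, Tek, Sox9, Ptprc, Adgre1, Xist, Eif2s3y, Ddx3y and the tyrosine phosphatases were added after their values were seen. The members and lists were chosen with earlier results of these data known. Alternatives covered pseudocounts, filters, scaling, thresholds and interval width. Gene positions are from GENCODE M21. The 2-fold rule, the interval steps and the implied reads were tested on simulated counts of equal depth. That simulation held no differing transcript models and no reads entered in pairs. The tools were Python 3.11.15, numpy 2.4.6, pandas 2.3.3 and matplotlib 3.10.9.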

Additional observations from a re-analysis of the deposited data

Results flagged for a closer look

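Unnamed loci, used in no comparison above, were searched in the 2000 bases upstream of the GENCODE start of each phosphatase gene. Those listed in the Klf9-OE library but not in the control library were taken for a closer look. Upstream of Dusp5, such a locus lay on chromosome 19 from 53528767 to 53528977 of mm10, 132 bases before the annotated gene, with an RPKM of 12.4 (5.77 to 19.0). Upstream of Dusp7, a locus lay on chromosome 9 from 106367947 to 106368495, 137 bases before the gene, with an RPKM of 2.76 (1.78 to 3.74) and 31.9 implied reads. In all, 3 of the 10 members had an unnamed locus in this window in the Klf9-OE library and 1 in the control library. For Dusp1 the GENCODE start is 26562128 and the start in both libraries 26508472. These starts are 142095843 and 142095284 for Dusp8, and 184013302 and 184034461 for Dusp10. The bases next to the library starts of these genes were therefore not searched. The shares among 11814 genes searched were 8.48% and 4.77%. The Klf9-OE library held 15127 unnamed loci and the control library 6482. The Dusp5 locus lay within the longer Dusp5 model of the Klf9-OE library, and whether it belongs to the Dusp5 transcript was not tested. Its last bases also lay within the named Dusp5 model of the control library, which started at 53528972.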

How the results depend on the processing

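The number of members at least 2-fold higher was 3 to 5 instead of 4 under the other pseudocounts, filters and scalings and with a ratio of 1.5. It was 3 with a pseudocount of 1, which took Dusp2 below the limit, and 0 with a ratio of at least 4. No member was 2-fold lower under any of these. The intervals of 6 members lay apart under all 5 alternatives of width and scaling. None of these alternatives changed the transcript models, whose part was not tested. The median log2 fold change of the members lay between 0.54 and 0.66 except over the 9 members that reached RPKM 1 in either library, where it was 0.78 because Dusp8 was left out. All 79 alternative values of single members stayed within their own intervals. Scaling shifted the log2 fold changes by 0.02 to 0.06. With 1 library per group, leaving out a library was not possible. No paired analysis was possible because each group had 1 library. Dusp2 and Dusp8 were limited most by depth.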

Other observations

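Near Dusp6, unnamed loci were present in both libraries. In the control library 1 locus lay on chromosome 10 from 99262105 to 99262614 with an RPKM of 1.78 (0.853 to 2.71). In the Klf9-OE library 1 lay from 99262086 to 99262406 with an RPKM of 3.50 (1.63 to 5.37), and a second from 99262681 to 99263049, 182 bases before the gene, with an RPKM of 4.32 (2.55 to 6.10). The intervals of the loci that overlap in position also overlapped in RPKM between the libraries. Strand is not given for these loci.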
